A study of Mus musculus with 106 samples.

Results

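The 9 transcription factor genes described here are known from the allantois and the lateral plate mesoderm of the early embryo: Foxf1, Isl1, Hand1, Tbx2, Tbx3, Tbx4, Tbx20, Gata4 and Gata6. They were taken by gene symbol and not by a cutoff on their values, though with earlier results of these data known. They are 9 of the 18193 genes that the array measured with a probe set of 1 symbol. Levels were read in single mouse cells of the C57BL/6 strain, each amplified and hybridised to its own array. The question the cells address is how germ cells form beside these mesoderm cells, and what happens without Blimp1, the product of Prdm1.

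The wild-type germ cell lineage was sampled at 6 points. Pre-streak (PS) posterior epiblast cells (n = 8) were chosen as Oct4+ T+, precursors of primordial germ cells (PGCs) as Blimp1+ Oct4+ at the early or mid streak (E/MS, n = 7) and at the late streak to 0-bud stage (LS/0B, n = 17). PGCs themselves were Blimp1+ stella+ cells of the early or mid bud (E/MB), the early head fold (EHF) and embryonic day (E) 8.25, with n = 8 at each. The wild-type neighbours were posterior mesoderm cells from the base of the allantois at E/MB (Blimp1- Oct4+ Hoxb1+, n = 10) and Blimp1+ Hoxb1+ cells, also picked for Oct4, at E/MB (n = 4) and EHF (n = 4). The title of the EHF Blimp1+ Hoxb1+ cells says E/MB, while their source and description say EHF. Blimp1 (-/-) cells carrying the transcript of the null allele, and Oct4, came from LS/0B (n = 20) and E/MB (n = 12) embryos and are called knockout cells. No group had a treatment, and no embryo or litter is named, so each group is 1 sample and no test was possible. Values are therefore given as log2 array signal with the SD over cells, which share embryos to an unknown extent.

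In this region of the embryo BMP signals from extraembryonic tissue induce both the germ cells and the mesoderm that builds the allantois, the bud that later forms the umbilical vessels. The genes described here belong to the mesoderm side of that choice. Foxf1 is a forkhead factor of extraembryonic and splanchnic mesoderm, Hand1 a basic helix-loop-helix factor of the same tissues, and Isl1 a LIM-homeodomain factor of cardiac and hindlimb progenitors. Tbx2, Tbx3, Tbx4 and Tbx20 are T-box factors of heart, limb and allantois, and Gata4 and Gata6 are zinc-finger factors of both heart mesoderm and endoderm.

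Signal below a floor of 70.2 (6.13 in log2), set from 126 probe sets of receptor and keratin-associated genes not used in these tissues, was raised to that floor. Detection in a cell meant a signal over the 95th percentile that those probe sets had on the same array. The genes used for choosing cells followed the labels where they could: Hoxb1 was detected in 10 of 10 mesoderm cells and Prdm1 in 0 of 10, and Dppa3 (stella) was detected in 8 of 8 PGCs at each stage. Prdm1 was detected in 12 of 20 and 9 of 12 knockout cells; since these cells were chosen for a transcript of the null allele, the probe set does not check the genotype. Cells had 8981 to 14502 probe sets detected. The mesoderm arrays stood apart in 1 measure: their hybridisation controls, added after amplification, averaged 10.61 to 11.53 (log2) against 8.86 to 10.61 on the other 96 arrays. At the stricter 99th percentile limit the groups compared with PGCs all had fewer probe sets detected, with means of 7101 in mesoderm and 7146 to 7684 in the Blimp1+ Hoxb1+ and knockout groups against 9021 to 9581 in the PGC groups. No pair of cells had identical values.

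Upstream sequence was at hand for 3 of the 9 genes, and the sequences of Isl1 and Tbx4 are shown because these genes were at opposite ends of detection: Isl1 in 66 cells, Tbx4 in none. Each is the 250 bases before the RefSeq start site on assembly GRCm38.p6, read in the gene's direction: Isl1 at chr13:116309689-116309938 on the minus strand and Tbx4 at chr11:85896515-85896764 on the plus strand. Capitals mark the letters GATAA, a core that GATA factors bind, or CTTTC, the reverse complement of GAAAG, searched on both strands.
Isl1: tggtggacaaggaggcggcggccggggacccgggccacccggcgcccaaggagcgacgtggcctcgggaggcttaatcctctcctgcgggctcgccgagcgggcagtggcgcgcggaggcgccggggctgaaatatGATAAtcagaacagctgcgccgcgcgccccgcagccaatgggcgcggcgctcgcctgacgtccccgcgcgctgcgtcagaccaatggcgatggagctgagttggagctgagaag
Tbx4: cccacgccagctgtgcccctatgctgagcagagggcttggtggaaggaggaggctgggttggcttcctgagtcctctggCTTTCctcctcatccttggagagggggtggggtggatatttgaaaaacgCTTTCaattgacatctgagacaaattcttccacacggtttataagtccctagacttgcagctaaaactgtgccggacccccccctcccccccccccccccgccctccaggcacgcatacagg
Isl1 held 1 GATAA, 114 bases before the start, and Tbx4 held GAAAG on the reverse strand 171 and 122 bases before it. Of 32851 promoters of this length, 22.6% held GATAA and 51.5% GAAAG, so both matches are common. The T-box letters GGTGTGA, in 3.33% of promoters, were in none of the 3. The window of Tbx20, at chr9:24774304-24774553 on the minus strand, held none of these letters. GC content was 71.2% for Isl1, 58.4% for Tbx4 and 68.8% for Tbx20, against a median of 52.4% over all promoters. These are matches of letters, not sites shown to be bound.

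The 9 genes split by how widely they were seen. Hand1 was detected in 89 of all cells, Isl1 in 66, Tbx3 in 60, Foxf1 in 44 and Gata4 in 30. Tbx2 and Tbx4, neighbouring genes on chromosome 11, were detected in 0 cells, for which the exact (Clopper-Pearson) 95% interval of the share reaches 3.42% and covers counting error only. The Tbx2 probe set never exceeded a signal of 8.94, and the highest signals of the Tbx4 probe sets were 108 and 115. So a defining gene of the allantois, Tbx4, gave no detectable signal even in mesoderm cells from its base. Gata6 and Tbx20 depended on the probe set and are described after the others.

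**Figure D1:**
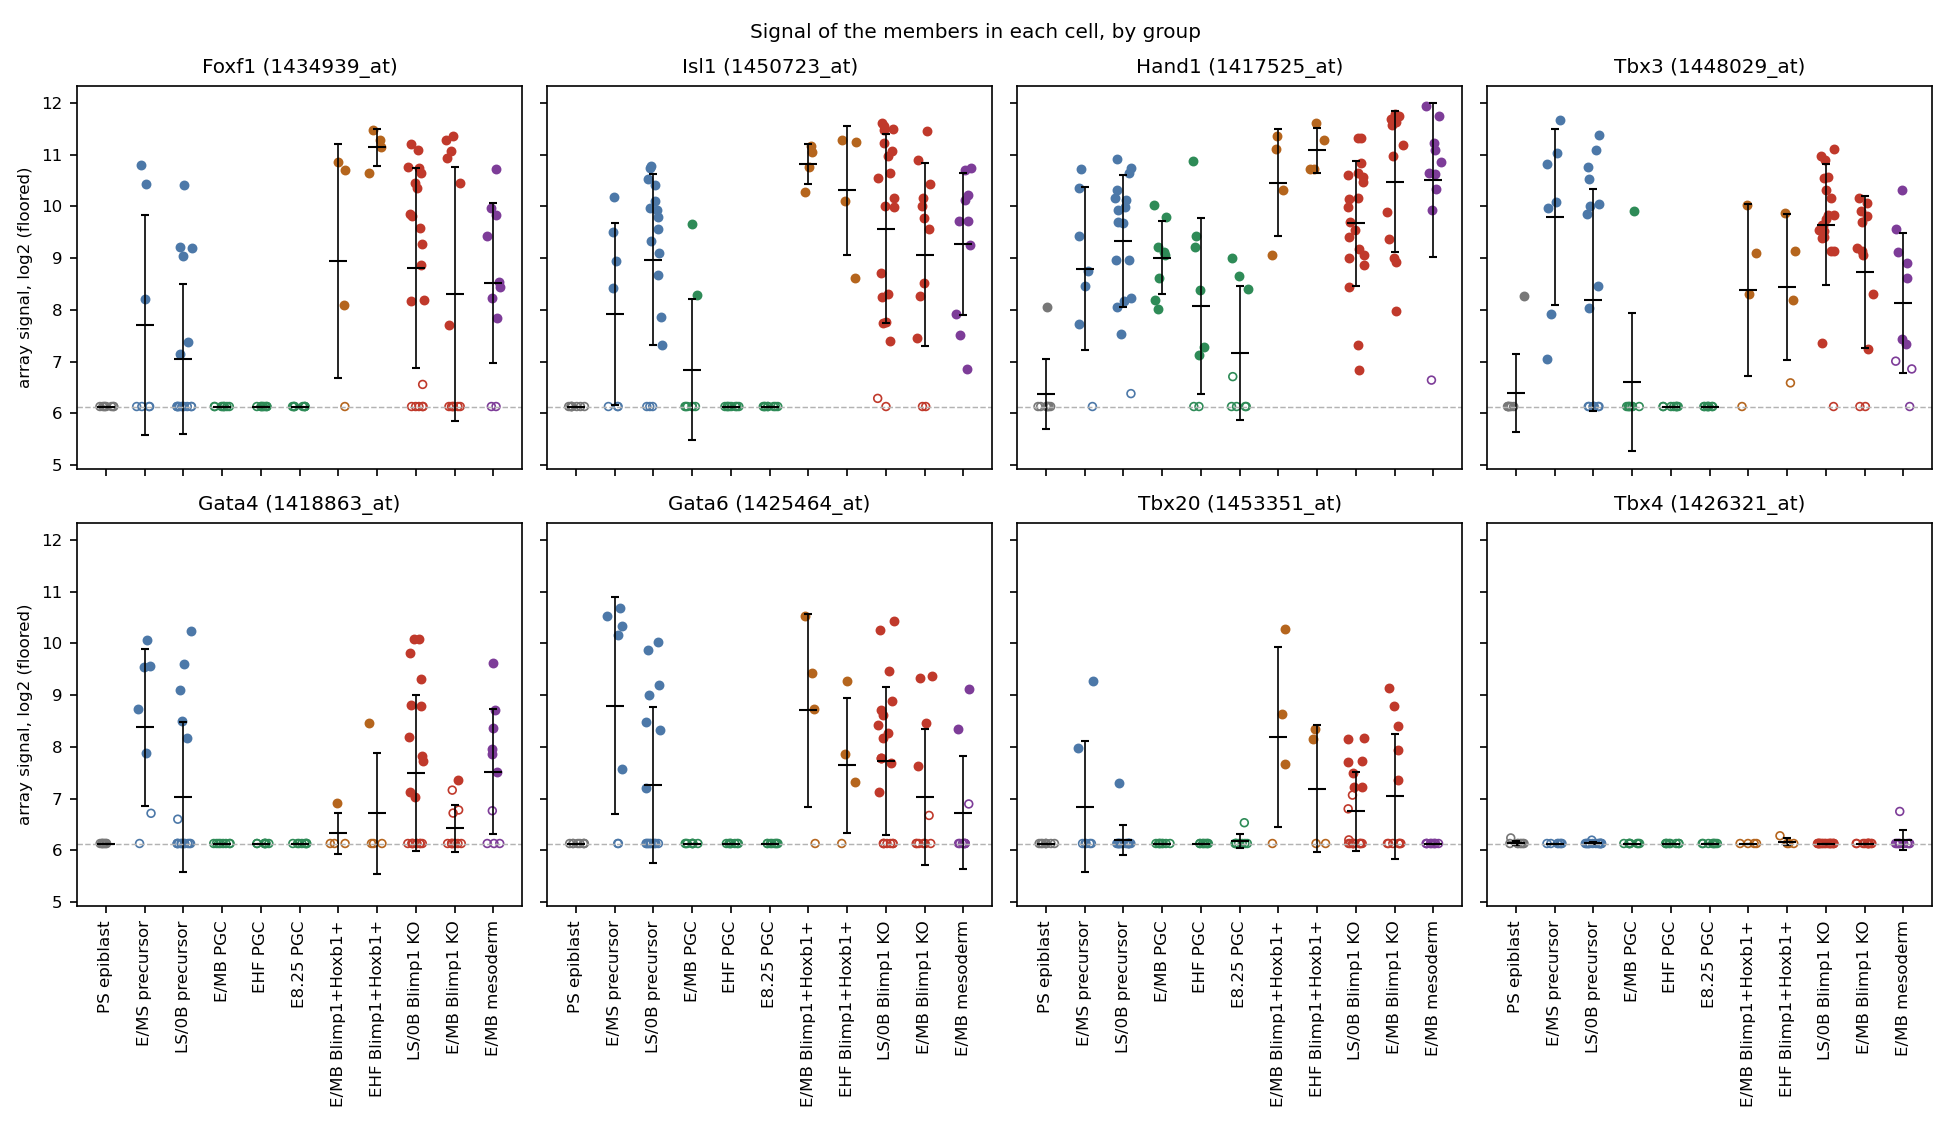
Array signal (log2, raised to the floor of 6.13, dashed line) of 8 probe sets in each cell, by group; filled points are detected, open points not, and bars are the mean ± SD over cells. Foxf1 and Gata4 sit at the floor in all PGCs, Hand1 is detected in 17 of 24 PGCs, and Tbx4 is not detected in any cell.

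Foxf1 was absent from the signal of every PGC. All 24 PGCs were at the floor, with a highest signal of 41.4 and an upper 95% limit (exact) of 14.2% of cells, and so were all 8 epiblast cells. That limit pools the PGC stages and covers counting error only, not the sharing of embryos. The 4 Blimp1+ Hoxb1+ cells of the EHF label had Foxf1 at 11.48, 10.64, 11.28 and 11.15, the highest group mean of the 11 (11.14 ± 0.36). The 4 such cells at E/MB had 8.10, 10.69, 6.13 and 10.86. Mesoderm ranged from 6.13 through a median of 8.49 to 10.72, with 8 of 10 cells detected. These groups overlapped with each other, but in the EHF comparison each Blimp1+ Hoxb1+ cell lay above each PGC.

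Foxf1 varied from cell to cell in precursors and in knockout cells, where some cells were at the floor and detected cells spread widely, from 7.14 to 10.41 in LS/0B precursors and from 8.17 to 11.20 in LS/0B knockout cells. It was detected in 3 of 7 E/MS precursors (6.13, median 6.13, highest 10.80) and 6 of 17 LS/0B precursors (6.13, 6.13, 10.41). LS/0B knockout cells had it in 14 of 20 (6.13, 9.43, 11.20) and E/MB knockout cells in 6 of 12 (6.13, 6.92, 11.36). In order of group means Foxf1 ran from EHF and E/MB Blimp1+ Hoxb1+ cells through LS/0B knockout, mesoderm, E/MB knockout and E/MS and LS/0B precursors to the 4 groups at the floor. No neighbouring step in that order was larger than the larger SD of its pair, so the order among the groups with signal is not firm. A second probe set detected Foxf1 in 5 cells, all of them among the 44.

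Isl1 was seen in most LS/0B precursors and in few PGCs. It was in 0 of 8 epiblast cells, 4 of 7 E/MS precursors (6.13, median 8.42, highest 10.17) and 14 of 17 LS/0B precursors (6.13, 9.57, 10.78). It was then in 2 of 8 E/MB PGCs (6.13, 6.13, 9.65) and in none of the 16 later PGCs. The Blimp1+ Hoxb1+ cells had 11.16, 11.06, 10.76 and 10.28 at E/MB, all above every E/MB PGC, and 10.10, 8.63, 11.28 and 11.25 at EHF, all above every EHF PGC. Mesoderm (6.85, 9.72, 10.74) was detected in 10 of 10 cells, and knockout cells in 18 of 20 at LS/0B (6.13, 10.09, 11.61) and 10 of 12 at E/MB (6.13, 9.67, 11.46). The other groups with signal overlapped, except that each E/MB Blimp1+ Hoxb1+ cell also lay above each E/MS precursor. No neighbouring step in the order of means exceeded the larger SD of its pair. The other Isl1 probe set was detected in 44 cells, 43 of them shared, with r = 0.81 over all cells.

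Hand1 was the one member that most PGCs retained. It was in 1 of 8 epiblast cells (highest 8.05), 6 of 7 E/MS precursors (6.13, 8.76, 10.72) and 16 of 17 LS/0B precursors (6.38, 9.69, 10.92). All 8 E/MB PGCs had it (8.02, 9.09, 10.03), then 6 of 8 at EHF (6.13, 7.83, 10.89) and 3 of 8 at E8.25 (6.13, 6.42, 9.01). The means of the 3 PGC groups were 9.01 ± 0.71, 8.07 ± 1.70 and 7.17 ± 1.29, so each step was smaller than the larger SD of its pair. The Blimp1+ Hoxb1+ cells had 10.31, 11.10, 9.06 and 11.35 at E/MB and 10.73, 11.28, 11.60 and 10.72 at EHF. Mesoderm had 6.64, 10.75 and 11.93 as lowest, median and highest, and the knockout cells 6.84, 9.85 and 11.32 at LS/0B and 7.99, 11.07 and 11.79 at E/MB. Knockout cells thus had Hand1 in 32 of 32 cells. The dimmer Hand1 probe set was detected in 38 cells, all among the 89 (r = 0.73 over all cells), and in only 1 of 24 PGCs, so the retention of Hand1 in PGCs rests on the brighter probe set.

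Tbx3, a repressor also known from pluripotent cells, was highest in the earliest precursors. It was in 1 of 8 epiblast cells (highest 8.26) and 7 of 7 E/MS precursors (7.06, 10.09, 11.67). LS/0B precursors were mixed, with 9 of 17 detected (6.13, 8.03, 11.38), and PGCs had it in 1 of 8 at E/MB (highest 9.92) and in none of 16 later. LS/0B knockout cells had it in 19 of 20 (6.13, 9.69, 11.10) and E/MB knockout cells in 10 of 12 (6.13, 9.18, 10.16). The Blimp1+ Hoxb1+ cells had 8.30, 10.03, 6.13 and 9.09 at E/MB and 6.59, 8.19, 9.86 and 9.14 at EHF, and mesoderm had 7 of 10 detected (6.13, 8.03, 10.31). In the order of means the step from mesoderm (8.13 ± 1.36) to E/MB PGCs (6.61 ± 1.34) was larger than either SD; no other neighbouring step was. Of the 4 other Tbx3 probe sets, those with any detection had 16 and 11 cells, all within the 60, and the other two had none.

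Gata4 was the most restricted of the 5 widely seen members. It was in none of 8 epiblast cells and none of 24 PGCs, in 5 of 7 E/MS precursors (6.13, 8.73, 10.07) and in 5 of 17 LS/0B precursors (6.13, 6.13, 10.23). LS/0B knockout cells had it in 11 of 20 (6.13, 7.07, 10.09), but E/MB knockout cells in 1 of 12 (6.13, 6.13, 7.36). Mesoderm of the same stage had it in 6 of 10 (6.13, 7.69, 9.61), and the Blimp1+ Hoxb1+ cells had 6.13, 6.92, 6.13 and 6.13 at E/MB and 6.13, 6.13, 8.46 and 6.13 at EHF. All groups reached down to the floor and so overlapped. A second probe set was detected in 1 cell.

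Gata6 gave opposite pictures by probe set. The probe set with the highest mean log2 signal, called the dim one here, passed the limit in 26 of the 56 cells of the germ cell lineage and in 0 of the 50 others, but it never exceeded a signal of 171 or 1.45 times the limit of its cell, and at the stricter limit was in no cell. A bright probe set reached a signal of 1641 and was detected in 37 cells: 0 of 8 epiblast cells, 5 of 7 E/MS precursors, 7 of 17 LS/0B precursors and 0 of 24 PGCs. Among the others it was in 13 of 20 LS/0B and 4 of 12 E/MB knockout cells and 2 of 10 mesoderm cells. The Blimp1+ Hoxb1+ cells had 9.42, 8.73, 6.13 and 10.53 at E/MB and 7.31, 7.86, 9.27 and 6.13 at EHF. The correlation between these probe sets was r = -0.22 over all cells, and which one reports Gata6 transcripts was not tested, so no direction is given for Gata6 as a gene.

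Tbx20, a cardiac T-box repressor, was thinly seen. Its probe set of highest mean signal was detected in 5 cells, and a second, brighter probe set in 20: 2 of 7 E/MS precursors, 1 of 17 LS/0B precursors, 7 of 20 LS/0B and 5 of 12 E/MB knockout cells, and no epiblast, PGC or mesoderm cell. The Blimp1+ Hoxb1+ cells had 8.64, 7.67, 6.13 and 10.28 at E/MB and 6.13, 8.15, 8.35 and 6.13 at EHF. The E/MB cell at 6.13 was the same cell that was at the floor for Foxf1, Tbx3 and the bright Gata6 probe set, and it was the Xist cell of its group. That cell still had Isl1 at 10.76 and Hand1 at 9.06.

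**Figure D2:**
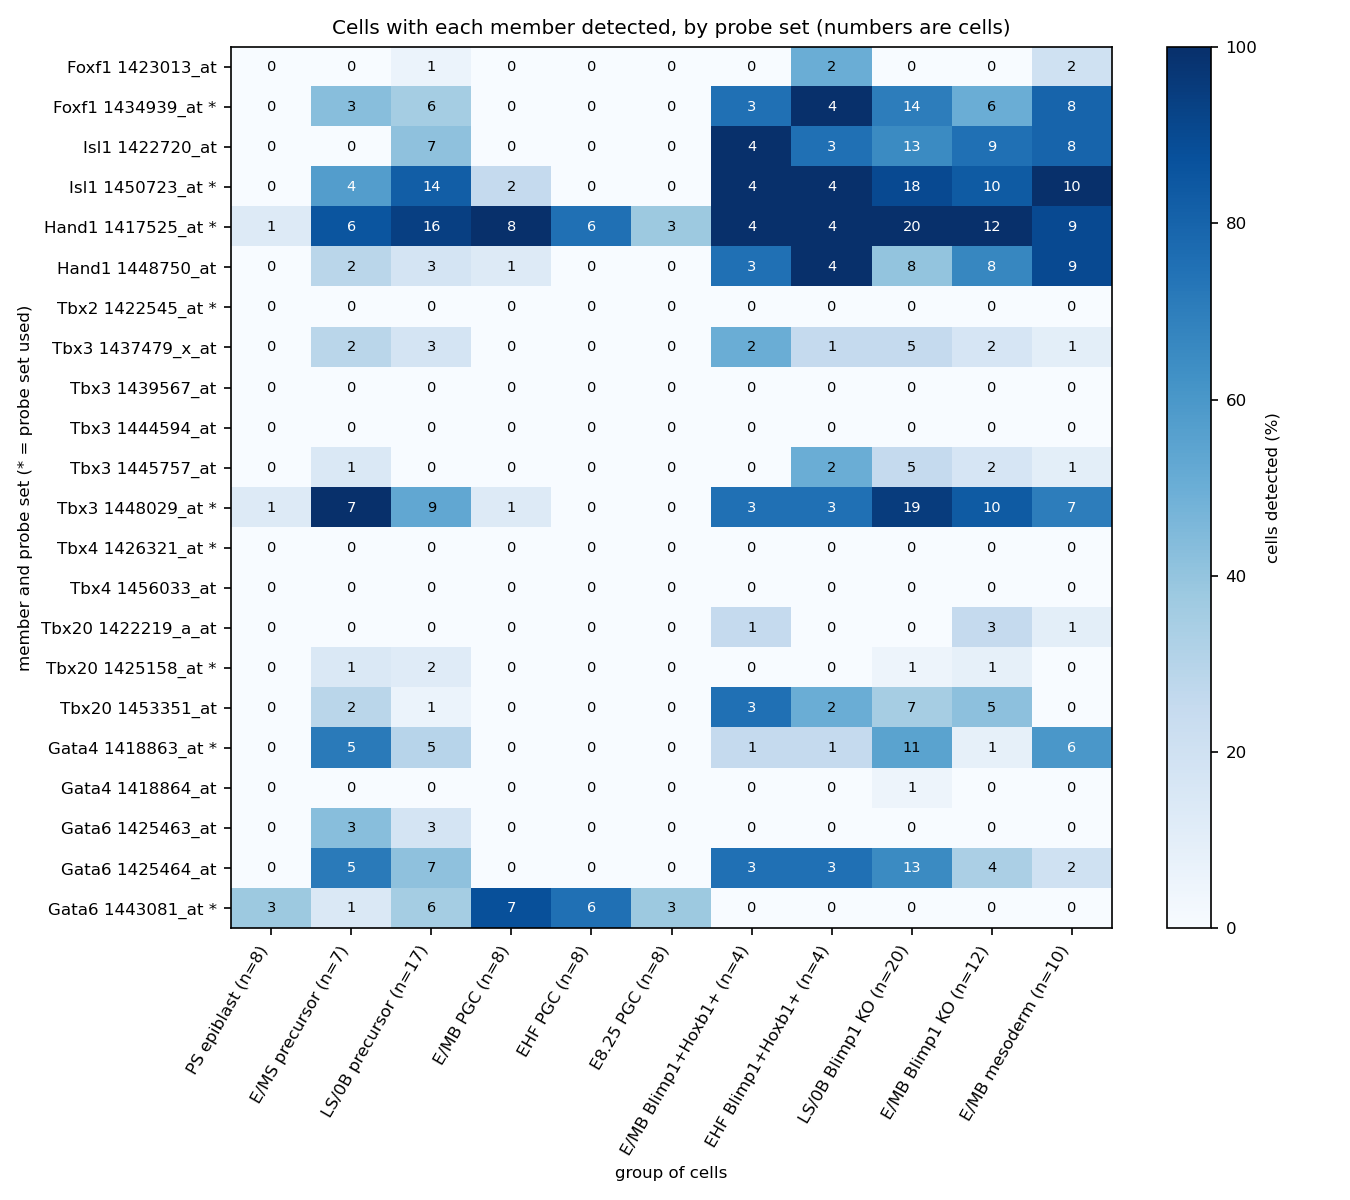
Cells of each group (columns, with n) in which each of the 22 probe sets of the 9 genes (rows) was detected; numbers are cells and shading is the percentage of the group. The Gata6 rows differ: the bright probe set is detected in no PGC and the dim one, marked as used, in no cell outside the lineage.

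Going from the epiblast to E/MS precursors, 5 of the 9 genes passed a difference of 1 log2 unit upward and none downward, where 2.48% of all 18193 genes passed upward and 2.67% downward. The same size of difference is meant by higher and lower in the counts that follow, where Gata6 and Tbx20 count by their probe sets of highest mean signal. The 5 were Tbx3 (by 3.40), Hand1 (2.43), Gata4 (2.24), Isl1 (1.79) and Foxf1 (1.58). The Gata4 difference is at least 1.40-fold, a bound set by the detection limits of the epiblast cells, which had no Gata4. All 8 epiblast cells had Xist and 6 of the 7 precursors had a Y-linked transcript, so sex and stage cannot be told apart here. Of the BMP signalling genes, 4 of 17 were higher and none lower, among them the targets Msx1 (3.50), Id1 (2.86) and Msx2 (2.50), with a list median of 0.70 against 0 over all genes.

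From E/MS to LS/0B precursors the members parted. Isl1 was higher by 1.05, while Tbx3 fell by 1.61 and Gata4 fell by 1.34, which is 1 of 9 higher and 2 lower against 1.41% and 1.37% of all genes. The Isl1 difference was 0.75 to 0.999 when any 1 of 11 of the 24 cells was left out. Xist was in 0 of the 7 E/MS but 8 of the 17 LS/0B precursors, so sex and stage are partly mixed here. LS/0B cells with Xist had Tbx3 at 7.30 ± 2.17 and Isl1 at 9.31 ± 1.24. Those without it had 8.98 ± 1.91 and 8.67 ± 1.97. Without the Xist cells neither Isl1 nor Tbx3 passed 1 log2 unit, while Gata4 did. From LS/0B precursors to E/MB PGCs 2 were lower and none higher, Isl1 (-2.13) and Tbx3 (-1.58), where 2.56% of genes were lower and 2.72% higher. Foxf1 (-0.92) and Gata4 (-0.91) reached the floor with smaller differences, having been in few precursors. Hand1 differed by -0.32. No member passed 1 log2 unit between EHF and E/MB PGCs (1.81% of genes higher, 2.06% lower) or between E8.25 and EHF PGCs (1.6% and 1.48%), and Hand1 had the largest differences there, -0.93 and -0.91.

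**Figure D3:**
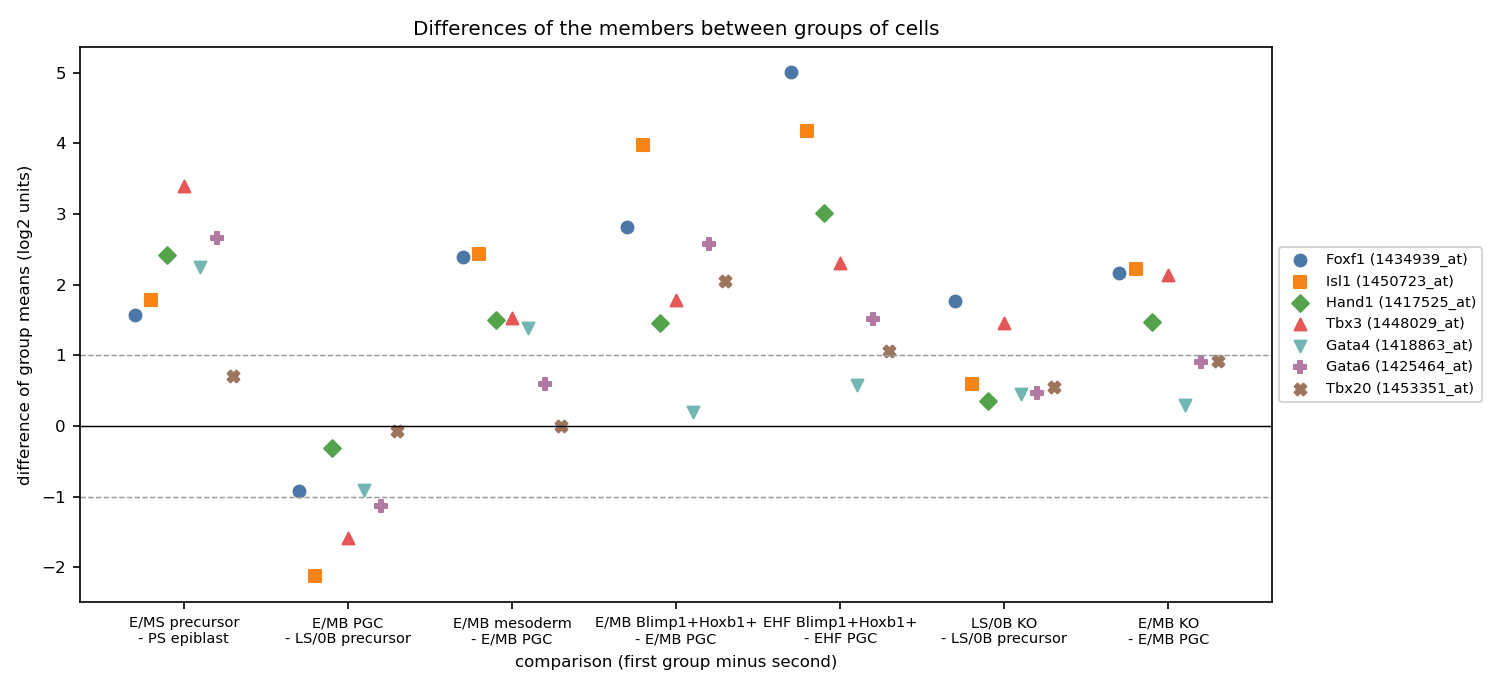
Mean floored log2 signal of the first group minus that of the second for 7 probe sets in 7 comparisons; dashed lines mark 1 log2 unit in either direction. Foxf1 and Isl1 are highest in the EHF comparison (5.01 and 4.18), and Isl1 and Tbx3 are lowest from LS/0B precursors to E/MB PGCs.

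Against E/MB PGCs, 3 groups of the same stage were set side by side; they share these 8 PGCs, so their differences are not independent. Foxf1 was higher by 2.39 in mesoderm, 2.81 in Blimp1+ Hoxb1+ cells and 2.17 in knockout cells. Isl1 was higher by 2.43, 3.97 and 2.23, Hand1 by 1.498, 1.45 and 1.47, and Tbx3 by 1.52, 1.78 and 2.13, in the same order. Gata4 parted from these 4: it was higher by 1.39 in mesoderm, but differed by 0.20 in Blimp1+ Hoxb1+ cells and 0.29 in knockout cells. Hence 5, 4 and 4 of the 9 genes were higher and none lower, where 3.55%, 5.1% and 3.69% of all genes were higher and 7.99%, 4.86% and 3.37% lower. These counts leave out the bright Gata6 probe set, detected in 3 of 4 Blimp1+ Hoxb1+, 4 of 12 knockout and 2 of 10 mesoderm cells. They also leave out the brighter Tbx20 probe set, in 3 of 4 Blimp1+ Hoxb1+ cells, some knockout cells and no mesoderm cell. Neither probe set was detected in a PGC. As bounds against PGCs with no cell detected, Foxf1 was at least 2.58-fold higher in mesoderm, at least 2.995-fold in Blimp1+ Hoxb1+ cells and at least 1.48-fold in knockout cells. For mesoderm, broadly detected genes as a whole shifted by -0.15, and the part that the array difference noted above has in these values was not tested.

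Among EHF cells, 4 of 9 genes were higher in Blimp1+ Hoxb1+ cells than in PGCs and none lower, against 5.12% and 6.52% of all genes. Foxf1 was higher by 5.01, at least 19.2-fold, and Isl1 by 4.18, at least 10.8-fold. Hand1 was higher by 3.01 and Tbx3 by 2.31, at least 2.97-fold for the latter. The cells of the groups did not overlap for Foxf1 and Isl1, and 1 Tbx3 cell (6.59) was not detected. On their other probe sets Gata6 (bright) was higher by 1.51 and Tbx20 (brighter) by 1.06.

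Directly between the non-germ groups at E/MB, few members differed by the probe sets used for the counts. Knockout cells had only Gata4 lower than mesoderm, by -1.09 (1 of 9 lower and 0 higher, against 1.29% and 6.58% of genes). Blimp1+ Hoxb1+ cells had Isl1 higher by 1.54 and Gata4 lower (-1.19) than mesoderm (1 of 9 each way, against 7.94% higher and 2.91% lower), and Isl1 higher by 1.75 than knockout cells (1 of 9 higher and 0 lower, against 1.87% and 2.14%). Foxf1 and Hand1 differed by less than 1 log2 unit in all 3 of these comparisons. On the bright Gata6 and brighter Tbx20 probe sets, which these counts leave out, Blimp1+ Hoxb1+ cells were also higher than mesoderm and knockout cells. Gata4 was under 1 log2 unit in both comparisons with mesoderm once the floor was set at the 95th percentile. Without mesoderm replicate 8 these differences were -0.86 and -0.96, and without replicate 7 the knockout difference was -0.96. Without the E/MB Blimp1+ Hoxb1+ cell at the Foxf1 floor, 2 genes were higher than in knockout cells and 3 higher than in mesoderm.

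At LS/0B, Foxf1 and Tbx3 were higher in knockout cells than in precursors. Of the 9 genes, 2 were higher in knockout cells than in LS/0B precursors and none lower, where 0.945% of all genes were higher and 0.379% lower. Foxf1 was higher by 1.76 (14 of 20 cells against 6 of 17) and Tbx3 by 1.45 (19 of 20 against 9 of 17). Both differences lay between the SDs of their groups, which were 1.94 in knockout cells and 1.45 in precursors for Foxf1 and 1.17 and 2.15 for Tbx3. Isl1 (0.59), Gata4 (0.46) and Hand1 (0.35) differed by less than both SDs. All 20 knockout cells had a Y-linked transcript, while 8 of the 17 precursors had Xist; without those 8, Foxf1 was higher by 1.87 and Tbx3 by 0.67. Of the Xist cells 2 of 8 had Tbx3 (7.30 ± 2.17) against 7 of 9 others (8.98 ± 1.91). With the mean of all probe sets of a gene, neither gene passed 1 log2 unit.

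Between the knockout stages only Gata4 passed, lower at E/MB than at LS/0B (-1.07), so that 1 of 9 genes was lower and 0 higher against 0.643% and 0.495% of genes. Leaving out LS/0B knockout replicate 3, 11, 12 or 15 left Gata4 between -0.94 and -0.98. Hand1 differed by 0.81 in the other direction. Wnt2 and Kdr, which followed Gata4 over all cells, were in 9 of 20 LS/0B knockout cells each and in 0 and 2 of the 12 at E/MB. They were picked by their correlation with Gata4 over cells that include these, so their counts are no separate support for the Gata4 difference. Wnt2 is a ligand of early heart and allantois mesoderm and Kdr the VEGF receptor of its vascular progenitors.

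The number of members detected together in a cell set PGCs and epiblast cells low and gave like medians to most other groups. Of Foxf1, Isl1, Hand1, Tbx3 and Gata4, the median cell had 0 in the epiblast, 4 at E/MS, 3 at LS/0B, and 1, 1 and 0 in the PGCs. It had 4 in both Blimp1+ Hoxb1+ groups, 4 and 3 in the knockout groups, and 5 in mesoderm. All 5 together were in 6 of 10 mesoderm cells, 8 of 20 LS/0B and 1 of 12 E/MB knockout cells, 2 of 7 E/MS and 3 of 17 LS/0B precursors and 1 of 4 cells in each Blimp1+ Hoxb1+ group, and in no PGC or epiblast cell. Over all cells the 44 with Foxf1 all had Hand1, and the 30 with Gata4 all had Tbx3.

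In LS/0B precursors Foxf1, Tbx3 and Gata4 were mostly seen apart from germ cell genes, and Isl1 and Hand1 were in most cells with or without them. The 5 cells with Gata4 all had Foxf1, Tbx3 and Gata6 (bright probe set), and none of them had Prdm14, Dppa3, Sox2 or Kit. Foxf1 was in 1 of the 8 cells with Dppa3, and Tbx3 in 1 of these 8. Isl1 was in all 8 cells with Dppa3 and in 10 of the 11 with Prdm14, a regulator needed for germ cell fate, and Hand1 in 7 and 10 of them; of the 6 cells without Prdm14, Isl1 was in 4 and Hand1 in 6. Over the 17 cells the correlation with Prdm14 was -0.87 for Tbx3, -0.79 for Gata4, -0.75 for Foxf1 and 0.06 for Isl1, while Foxf1 and Gata4 had r = 0.92. For Tbx3 and Prdm14 it was -0.96 in the 8 cells with Xist and -0.70 in the 9 without. These values describe cells that share embryos and one amplification each, and carry no test.

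In the LS/0B knockout cells Prdm14 was detected in 11 of 20 cells. Tbx3 was in nearly every cell, 10 of the 11 with Prdm14 and 9 of the 9 without it. With Tbx3 in 19 of the 20 cells, these counts cannot tell whether it was associated with Prdm14. Foxf1 was in 7 of the 11 and in 7 of the other 9. The correlation of Tbx3 with Prdm14 was -0.06 over these 20 cells, that of Foxf1 with Prdm14 was -0.51, and Foxf1 with Gata4 had 0.59. The difference of these correlations between genotypes was not tested. No knockout cell at this stage had Dppa3.

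**Figure D4:**
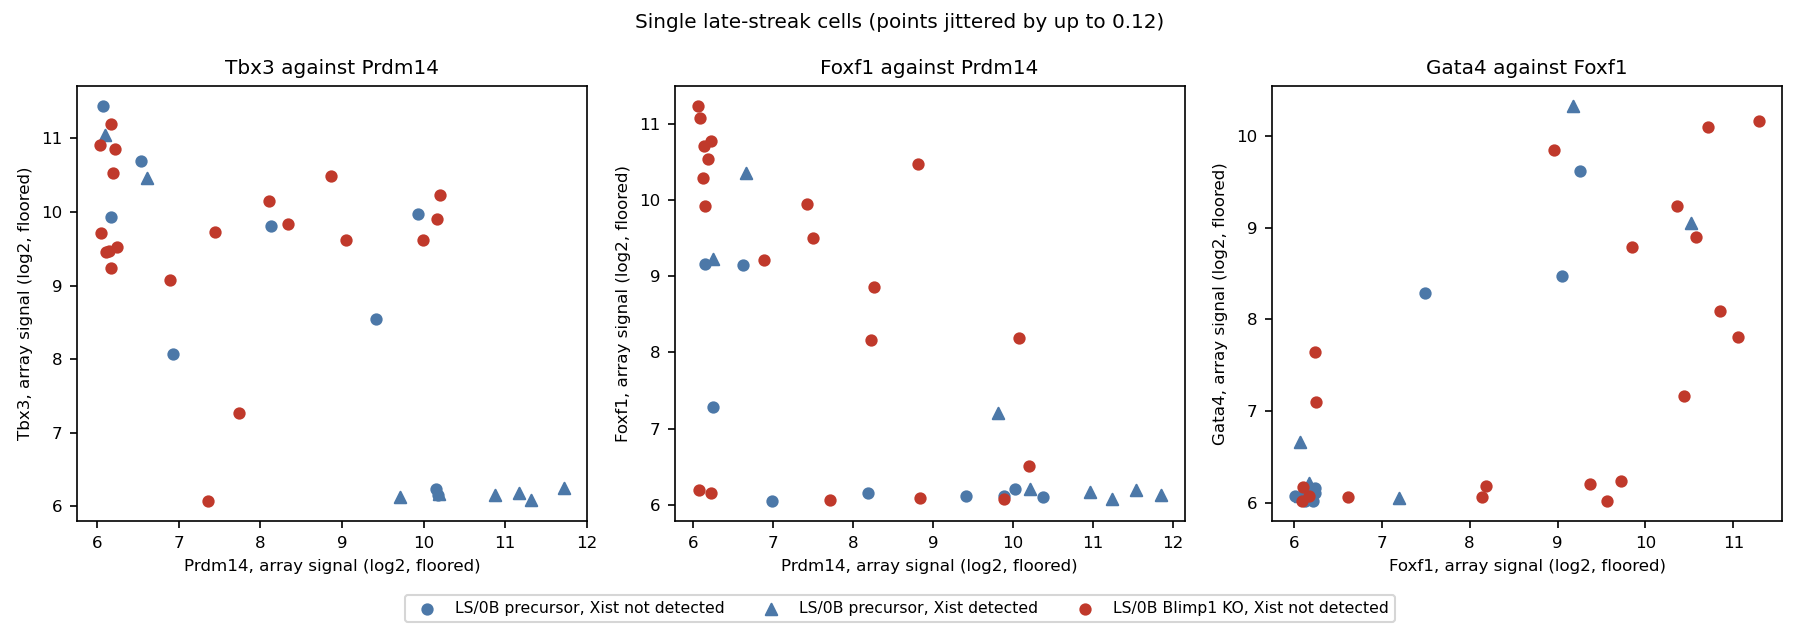
Each point is 1 late-streak cell, plotted by floored log2 signal of Tbx3 or Foxf1 against Prdm14 and of Gata4 against Foxf1; blue marks precursors, red knockout cells, and triangles cells with Xist. Tbx3 is detected in 3 of the 11 precursors with Prdm14 and 6 of the 6 without it, and in 10 of the 11 knockout cells with Prdm14 and 9 of the 9 without it.

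Genes whose pattern was most like each member were sought among 10412 genes over all cells, again as a description. Foxf1 was followed most closely by Fendrr (r = 0.81), the lncRNA gene next to it, detected in 35 cells of which 31 had Foxf1. Fendrr was in 4 of 4 EHF and 3 of 4 E/MB Blimp1+ Hoxb1+ cells, 7 of 10 mesoderm cells, 13 of 20 and 5 of 12 knockout cells, but 1 of 17 LS/0B precursors, where Foxf1 was in 6, and 1 of 7 E/MS precursors, where Foxf1 was in 3. It was also in 1 of 8 E8.25 PGCs, where every cell was at the Foxf1 floor. Fgf3 (0.77) and Pdgfra (0.76) came next. For Isl1 these were Mesp1 (0.64), Vamp1 (0.62) and Cfc1 (0.61), for Hand1 Prdm6 (0.69), Foxf1 and Fjx1 (0.66 each), and for Tbx3 Pdgfra (0.70), Hs3st3b1 (0.68) and Cdh11 (0.64). Gata4 was nearest to Pth1r, Wnt2 and Kdr (0.76 each), and Gata6 (bright) to Cyp26a1, Cdh11 and Pdgfra (0.73 each). The dim Gata6 probe set was nearest to other genes, Tmem158 (0.84), Fcrla and Zfp474 (0.83 each). Each of these had a higher mean in every germ cell lineage group than in every other group. Such correlations combine differences between groups with those between cells of a group.

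Other mesoderm genes of the region did not move as a block with the members, though some were higher. Over 19 measured allantois and lateral mesoderm partners the median difference was 0 in each comparison with PGCs, as over all genes. In knockout cells at E/MB 3 were higher, Smarcd3 (1.68), Bmp4 (1.54) and Snai2 (1.01), and 1 lower, Fgf8 (-1.15). Of all genes 3.69% were higher and 3.37% lower there. In mesoderm none was higher and Fgf8 was lower (-1.08), against 3.55% and 7.99% of all genes. In the EHF Blimp1+ Hoxb1+ cells 4 were higher, against 5.12% of all genes: Bmp4 (2.51), Prrx2 (1.80), Twist1 (1.55) and Osr1 (1.08). At LS/0B none of the 19 passed in knockout cells, where 0.945% of all genes were higher and 0.379% lower. Of 12 paralogs of the members, Gata2 was higher in E/MB knockout cells (1.14), mesoderm (1.55) and EHF Blimp1+ Hoxb1+ cells (1.35), and Isl2 lower (-1.07, -1.07 and -1.13).

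Among BMP signalling genes, Smad6 was higher in each of 5 comparisons and most of the list in none. Smad6, an inhibitory Smad that BMP induces, was higher than in PGCs by 2.52 in E/MB knockout cells, 1.70 in mesoderm, 3.09 in E/MB and 1.81 in EHF Blimp1+ Hoxb1+ cells, and by 1.21 in LS/0B knockout cells over precursors. Of the 17 genes 3, 2, 5, 5 and 1 were higher in these comparisons, where 3.69%, 3.55%, 5.1%, 5.12% and 0.945% of all genes were, with list medians of 0.51, 0.24, 0.63, 0.37 and 0.35 against 0 over all genes. In mesoderm 2 were lower, Msx1 (-1.65) and Bmp7 (-1.29), and in the other 4 none. Id1, a main BMP target, was no higher than in E/MB PGCs (11.97), at 11.33 in knockout cells, 11.86 in mesoderm and 11.34 in Blimp1+ Hoxb1+ cells. Msx1 was likewise 11.59 in E/MB PGCs against 11.29, 9.93 and 11.15. Id2 and Msx2, of the same list, went the other way. In E/MB PGCs Id2 was 6.13 and Msx2 8.98. In the 3 groups in the same order, Id2 was 8.11, 6.90 and 8.15, and Msx2 was 9.92, 9.56 and 9.83. Of 11 germ cell genes, 10 were lower in E/MB knockout cells, 11 in mesoderm and 10 and 9 in the Blimp1+ Hoxb1+ cells. At LS/0B 6 of them were lower in knockout cells. Of all genes 3.37%, 7.99%, 4.86%, 6.52% and 0.379% were lower in these comparisons. Several of the 11 genes chose the cells.

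Because Gata4 and Gata6 also mark endoderm, endoderm genes were read in the same cells. Of 13 measured visceral and definitive endoderm markers, Afp, Foxa1 and Sox7 were detected in no cell of any group, and Hnf4a in 1 mesoderm cell alone. Others were seen: Apoa4 in 14 of 17 LS/0B precursors and 15 of 20 LS/0B knockout cells, and in 3 of 4 and 2 of 4 Blimp1+ Hoxb1+ cells at E/MB and EHF. Apoa4 was dim and seen in every group, with group means of 6.81 to 7.70. It was also in 8 of 8 epiblast cells, 8 of 8 PGCs at E/MB and at EHF, and 10 of 10 mesoderm cells. Dab2 was in 6 of 17 LS/0B precursors and 14 of 20 LS/0B knockout cells, and in 4, 3 and 3 of 8 PGCs at E/MB, EHF and E8.25. Apoa1 was in 10 of 20 and 10 of 12 knockout cells and 4 of 4 EHF Blimp1+ Hoxb1+ cells. The summed signal of the list above the floor was 1.27 to 4.95 log2 units in E/MS precursors, 1.57 to 8.17 in LS/0B precursors and 2.03 to 6.35 in LS/0B knockout cells. It was 4.17 to 10.5 in E/MB PGCs, which had no Gata4, and there Sox17, also a germ cell factor, was in 8 of 8 cells at 9.50. Without Sox17, a choice made after seeing the data, the sum had a median of 3.69 in E/MB PGCs, 3.98 in LS/0B knockout cells, 3.05 in LS/0B precursors and 2.05 in E/MS precursors. The part these markers have in the Gata4 values was not tested. Of 10 blood and endothelium markers, Hbb-bh1, Hba-x, Pecam1, Cdh5 and Tie1 were detected in no cell, while Etv2 was in 8 of 10 mesoderm cells, 14 of 20 LS/0B knockout cells and 8 of 17 LS/0B precursors, and Lmo2 in 7 of 8 E/MB PGCs. Of 7 trophoblast markers Elf5 was in no cell, but Esx1 was in 17 of 17 LS/0B precursors, 18 of 20 LS/0B knockout cells and 8 of 8 E/MB PGCs. Esx1 was dim, with group means of 6.78 to 8.01, and was in nearly every cell of every group but mesoderm (3 of 10). In mesoderm Ascl2 was in 10 of 10 cells and Plet1 in 8 of 10. Neither was particular to mesoderm, with Ascl2 also in 14 of 17 LS/0B precursors and Plet1 in 6 of 8 EHF PGCs.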

How the data were processed

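Per the labels' protocols, embryo fragments were dissociated with trypsin, cells were picked, and the cDNA of each lysed cell was amplified by PCR and labelled as cRNA. The deposited values are linear array intensity, 1 per probe set and cell, made with MAS5 per the submitters' processing notes; neither version nor scaling target is given in the sources used here. Of all values, 15.3% stood at the lowest value of 1. Rare transcripts can drop out when 1 cell is amplified, and a low value is no proof of absence.

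Of 45101 probe sets, 34945 had 1 symbol, 932 several and 9160 were unnamed here; 64 were controls. Deposited intensity was floored at the median over cells of the 90th percentile of background probe sets and turned into log2. Detection limits were signals of 82.8 to 166. A gene's probe set was the one of highest mean log2 signal. Means, SDs and counts were computed with Python 3.11.15, numpy 2.4.6 and pandas 2.3.3, and the procedure was tested on simulated data. Called means a difference of group means of at least 1. An "at least" fold sets the brighter mean against, per dimmer cell, the higher of its limit and its value, without the floor. The named genes were the 9 members, the 3 most correlated genes of each member detected in at least 10 cells (among genes detected in at least 10 cells), up to 4 members with the largest differences per list, and the genes used to choose cells with Xist. Germ cell genes in the co-detection, detected markers of other cell types, and Fendrr, Wnt2 and Kdr by group, were followed after their values were seen. Members and lists were chosen with earlier results of these data known. Alternatives were other floors, probe sets, scalings, cells and summaries.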

Additional observations from a re-analysis of the deposited data

Results flagged for a closer look

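In 6 of the 33 combinations of gene and group that were examined, 1 cell stood far from the others of its group. The rule's chance rate of 1 in 20 holds only for values without a floor. A lone cell above the floor is always flagged, so the 6 cannot be set against that rate. In the epiblast these were the highest Hand1 cell (replicate 1, 8.05 log2 units) and the highest Tbx3 cell (replicate 5, 8.26). In mesoderm replicate 3 had the lowest Hand1 (6.64), and among E/MB PGCs replicate 8 had the highest Tbx3 (9.92). Gata4 was set apart in 1 Blimp1+ Hoxb1+ cell at E/MB (replicate 2, 6.92) and in 1 at EHF (replicate 3, 8.46), where the other three of each group were at the floor.

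Probe sets other than the ones used gave signal above the detection limit that PGCs did not have. The bright Gata6 probe set was detected in 3 of 4 Blimp1+ Hoxb1+ cells at E/MB and 3 of 4 at EHF, in 13 of 20 LS/0B and 4 of 12 E/MB knockout cells, and in 2 of 10 mesoderm cells. The brighter Tbx20 probe set was detected in 3 of 4 and 2 of 4 Blimp1+ Hoxb1+ cells at E/MB and EHF. The remaining Tbx20 probe set was detected in 1 of 4 Blimp1+ Hoxb1+ cells at E/MB and in 1 of 10 mesoderm cells.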

How the results depend on the processing

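No paired analysis was possible because the results come from no test and the replicate numbers only number cells. The 34 member differences of at least 1 log2 unit gave 267 values under other settings and 635 that left out 1 cell. None of these values had the opposite sign, and 18 and 0 of them moved by 1 SD or more. With medians over cells the Foxf1 difference from epiblast to E/MS precursors was 0, because both medians were at the floor. Of 222 counts under other settings, 176 stayed within 1.5 times; the others follow, and their cause was not tested.

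With no floor, members higher were 4 in LS/0B knockout cells against precursors, 3 in E/MB Blimp1+ Hoxb1+ against knockout cells and 2 in LS/0B against E/MS precursors; members lower were 1 in each of knockout, mesoderm and Blimp1+ Hoxb1+ cells against E/MB PGCs, 2 in E/MB knockout cells against mesoderm, 3 against LS/0B knockout cells, 2 in EHF against E/MB PGCs and 1 in E8.25 against EHF PGCs. With the floor at the 95th percentile, members higher were 3 in mesoderm against PGCs and 0 in LS/0B against E/MS precursors; members lower were 0 in knockout cells against mesoderm and against LS/0B knockout cells, 0 in Blimp1+ Hoxb1+ cells against mesoderm and 1 in LS/0B against E/MS precursors. With the mean of all probe sets, members higher were 0 in LS/0B knockout cells, 3 in mesoderm against PGCs, 2 from epiblast to E/MS and 0 from E/MS to LS/0B; members lower were 0 in knockout cells against mesoderm and against LS/0B knockout cells, 0 in Blimp1+ Hoxb1+ cells against mesoderm, 0 from E/MS to LS/0B and 1 from LS/0B to E/MB PGCs. Centring arrays on broadly detected genes gave 0 higher from E/MS to LS/0B.

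Scaling to the lys spike, which moved broadly detected genes by -0.80 (Blimp1+ Hoxb1+ against knockout cells) to 0.66 (knockout cells against PGCs), gave 1 higher between knockout stages, 1 lower in Blimp1+ Hoxb1+ against knockout cells, 0 higher against mesoderm, 0 higher from E/MS to LS/0B, 4 lower from LS/0B to E/MB PGCs and 1 lower from EHF to E8.25. Without Xist cells, members higher were 1 in LS/0B knockout cells, 2 in Blimp1+ Hoxb1+ against knockout cells, 3 against mesoderm and 0 from E/MS to LS/0B; members lower were 1 from E/MS to LS/0B and 1 from EHF to E8.25. Medians over cells gave 1 higher and 2 lower in knockout cells against mesoderm, 1 higher between knockout stages, 2 higher in Blimp1+ Hoxb1+ against knockout cells, and 1 lower from E/MB to EHF and from EHF to E8.25. Taking the probe set of highest mean floored signal, chosen after seeing the data, gave 3 higher in Blimp1+ Hoxb1+ cells against knockout cells and against mesoderm.

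Leaving out 1 cell moved counts of members lower between 0 and 1 in knockout cells against mesoderm, 0 and 2 between knockout stages, 0 and 1 in Blimp1+ Hoxb1+ cells against mesoderm, and 0 and 1 at both later PGC steps. Counts of members higher moved between 0 and 1 between knockout stages and from E/MS to LS/0B, 1 and 2 in Blimp1+ Hoxb1+ against knockout cells, and 1 and 3 against mesoderm. The other counts stayed at their values, which were 2, 4, 5, 4, 4 and 5 higher for LS/0B knockout cells, E/MB knockout cells, mesoderm, both Blimp1+ Hoxb1+ groups and E/MS precursors, and 2 lower for each later precursor step. The number of arrays, and detection in groups of 4 cells, limit the precision.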
